A study of Saccharomyces cerevisiae with 14 samples.

Results

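Transcripts of 8 genes for vacuolar proteases and for the proteins that inhibit them were followed through a brewery lager fermentation. The genes were PEP4, PRB1, PRC1, CPS1, APE3 and LAP3 for the enzymes and PAI3 and PBI2 for the inhibitors, taken by name out of 5449 S. cerevisiae genes on the array. Each of the 8 was represented by 1 probe set annotated to that gene alone, and all 8 were above background and tested, together with 5290 other genes.

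The yeast was the lager strain CB11, sampled at 8, 30, 60, 80 and 102 h after pitching (addition of the yeast to the wort) from a single production-scale cylindroconical vessel. The batch had already served in earlier fermentations, and the wort was oxygenated and made of malt with sugar adjunct. The times of 8, 60, 80 and 102 h had 3 arrays each and 30 h had 2. All 14 arrays therefore shared strain, vessel, wort and yeast batch, and p-values measure only the spread between samples of that vessel, which may be technical. The strain is labelled S. cerevisiae, lager yeasts are hybrids of S. cerevisiae with a related species, and a probe set may collect transcripts of both parental copies. Only transcript signal relative to the other transcripts on an array was measured, so the amount of RNA per cell, protein and protease activity were not.

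The vacuole is the main degradative compartment of the yeast cell. Many of its proteases are made as inactive precursors and are delivered through the Golgi. PEP4 encodes proteinase A, an aspartyl protease that activates itself in the acid vacuole and then starts the activation of other precursors, among them proteinase B (PRB1, a subtilisin-like serine protease) and carboxypeptidase Y (PRC1). CPS1 encodes carboxypeptidase S and APE3 aminopeptidase Y. LAP3, also known as bleomycin hydrolase, encodes a cysteine aminopeptidase that is largely cytosolic, so the name of the group fits it less well. Small cytosolic proteins bind these enzymes: PAI3 encodes the inhibitor of proteinase A, PBI2 that of proteinase B and TFS1 that of carboxypeptidase Y. In brewing, proteinase A that yeast releases into beer degrades foam-forming proteins.

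Features of single arrays touch the values below. The mean log2 ratio of 5′ to 3′ probe set signal over 7 control transcripts was -3.12 on 8 h replicate 1, -3.77 on 60 h replicate 1 and -1.55 on 60 h replicate 2, against -0.80 to -0.33 on the other 11 arrays. A low ratio goes with shortened RNA or incomplete cDNA. The 30 h arrays were far apart for some genes, and 30 h replicate 2 correlated more closely across probe sets with 8 h replicates 2 and 3 (r = 0.986 and 0.987) than with 30 h replicate 1 (r = 0.975). Where leaving out the 3 arrays low in 5′ signal changed a call of the 8 genes or TFS1 in an F-test, in 1 of the 5 comparisons or between neighbouring levels, the value without them is also given. Without them 60 h is 1 array, which is assumed to vary like the others.

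The inhibitor of proteinase A moved most. Normalised signal of PAI3 was 501, 306 and 361 at 8 h, 1709 and 512 at 30 h, 3193, 1880 and 2193 at 60 h, 2224, 1979 and 2207 at 80 h, and 1952, 1805 and 1839 at 102 h (replicates 1, 2 and 3 in order here and below). All 9 arrays of 60 h and later were above all 5 earlier ones, and of the 30 h arrays 1 lay near the later level and 1 near that of 8 h. PAI3 was 4.89-fold higher at 102 h than at 8 h (log2 change 2.29 ± 0.34, SE here and below, limma adjusted p = 1.33e-04). The span between its lowest and highest time means was 2.63 on the log2 scale, 6.20-fold, which was larger than the span of 98.2% of the 5338 probe sets tested.

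**Figure D1:**
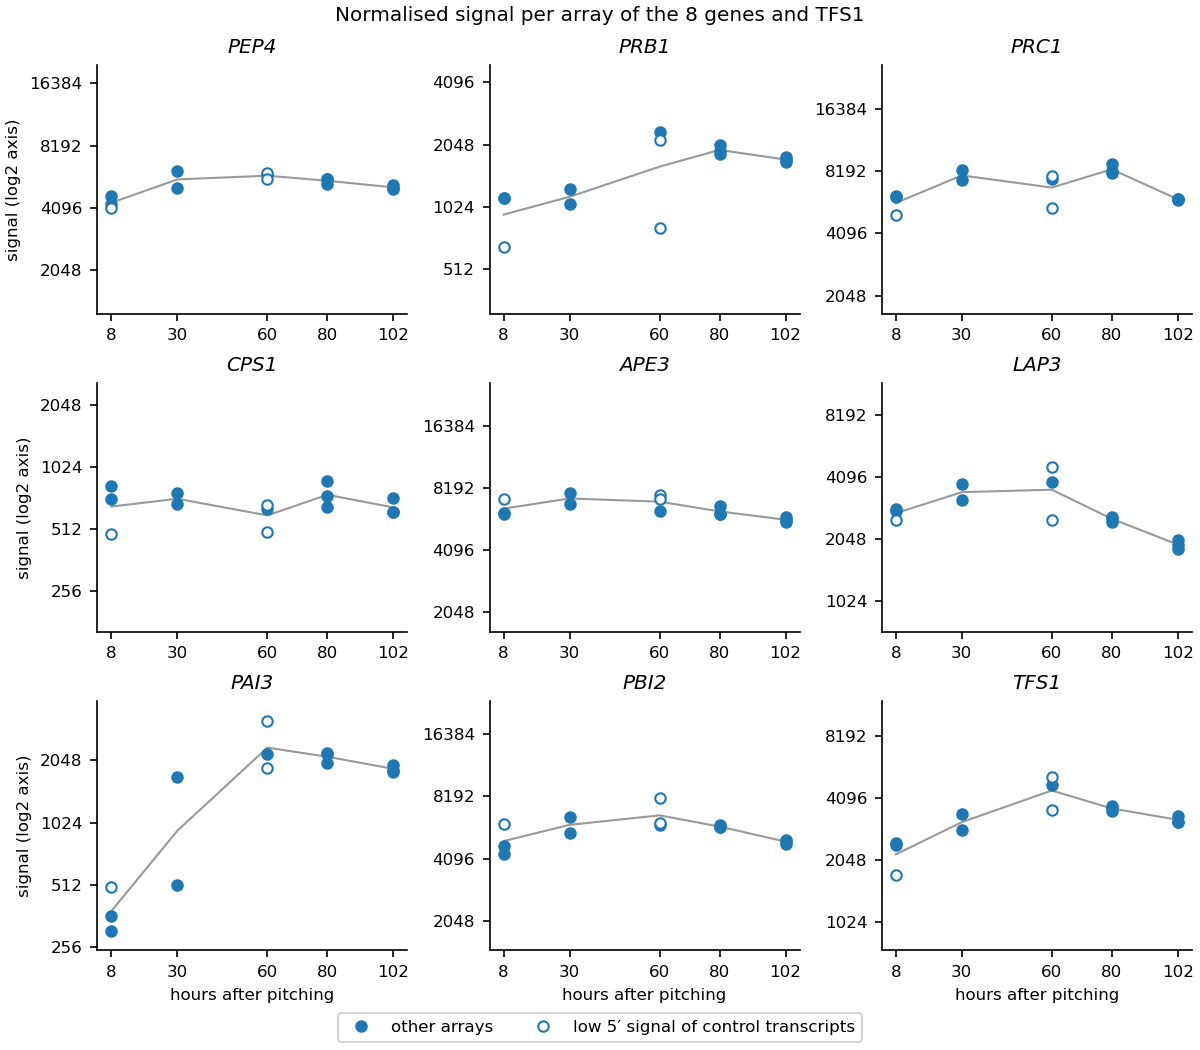
Normalised signal (log2 axis) of each of the 8 genes and of TFS1 on every array against hours after pitching, with a grey line through the time means of log2 values. Every panel covers the same number of doublings. Open circles are the 3 arrays of low 5′ signal and filled circles the other 11. PAI3 stands at 306 to 501 at 8 h and at 1805 to 3193 from 60 h on, while PEP4 stays between 4059 and 6194 throughout.

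Between 30 h and 60 h the PAI3 change was 1.34 ± 0.38 on the log2 scale, 2.53-fold, with adjusted p = 0.0189. That call rested on 30 h replicate 2, and a fit of the arrays of the 2 times alone did not give it (adjusted p = 0.141). Without that array the change was 0.47 (adjusted p = 0.334), and PAI3 was instead called higher at 30 h than at 8 h, by 2.17. With all arrays 30 h exceeded 8 h by 1.30 ± 0.38 and missed the threshold (adjusted p = 0.131). Without the 3 arrays low in 5′ signal the same step was 1.49 with adjusted p = 0.0328, and the step of 60 h over 30 h was 1.23 with adjusted p = 0.0513. The level at 60 h, 80 h and 102 h differed by no more than 0.34 on the log2 scale between time means, and no neighbours in the order of levels (8, 30, 102, 80 and 60 h, from low to high) passed the test, including 30 h and 102 h with adjusted p = 0.0624. Without the low 5′ arrays 102 h exceeded 30 h by 1.00 and passed (adjusted p = 0.0235).

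Proteinase A itself was nearly level. PEP4 signal was 4059, 4254 and 4689 at 8 h, 6194 and 5081 at 30 h, 6035, 5620 and 5903 at 60 h, 5333, 5609 and 5641 at 80 h, and 5036, 5247 and 5127 at 102 h. All 11 arrays after 8 h were above all 3 arrays of 8 h. PEP4 changed over the 5 times (moderated F-test of limma, adjusted p = 0.0107), but its largest difference between time means, 60 h over 8 h, was 1.35-fold, and 11.0% of tested probe sets had a smaller span. That F-test stayed under the threshold whichever 1 array was left out. Without the 3 arrays low in 5′ signal, PEP4 exceeded 8 h by 0.40 at 60 h, then 1 array, and by 0.31 at 80 h. With all arrays PEP4 was 1.19-fold higher at 102 h than at 8 h (0.25 ± 0.10, adjusted p = 0.0480). This call was marginal, since without the 3 arrays low in 5′ signal the change was 0.20 with adjusted p = 0.0752, and on the authors' scale it was 0.19 with adjusted p = 0.127. It was lost as well when any 1 of the arrays 8 h replicates 1 and 2, 60 h replicates 2 and 3, or any of 80 h or 102 h was left out, with changes of 0.20 to 0.26 and adjusted p between 0.0521 and 0.136. PEP4 at 30 h over 8 h missed the threshold at 0.38 ± 0.11 (adjusted p = 0.127) and passed without 30 h replicate 2 (0.52, adjusted p = 0.0226). In the order 8, 102, 80, 30 and 60 h from low to high, 8 h and 102 h were the only neighbours that passed, and 102, 80, 30 and 60 h were not told apart from their neighbours.

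The inhibitor of proteinase B was also close to level. PBI2 signal was 6035, 4328 and 4715 at 8 h, 6512 and 5465 at 30 h, 8057, 6112 and 5924 at 60 h, 5804, 5804 and 5945 at 80 h, and 4996, 5016 and 4833 at 102 h. The 102 h arrays were below every array of 30, 60 and 80 h and lay within the range of 8 h. None of the 5 comparisons passed for PBI2, and neither did the F-test (adjusted p = 0.0613). The highest value at 8 h and the highest at 60 h came from the arrays of lowest 5′ signal of those times. Without the low 5′ arrays the F-test passed (adjusted p = 0.00419), with 30 h over 8 h at 0.40 (adjusted p = 0.0307) and 102 h over 80 h at -0.24 (adjusted p = 0.0253). From low to high its times ran 102, 8, 80, 30 and 60 h, with no neighbours past the test with all arrays. Without the low 5′ arrays PBI2 was higher at 80 h than at 8 h (0.37, adjusted p = 0.00247).

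Proteinase B had a wide spread between arrays of the same time at 8 h and 60 h. PRB1 signal was 651, 1124 and 1124 at 8 h, 1246 and 1050 at 30 h, 810, 2143 and 2361 at 60 h, 2033, 1909 and 1846 at 80 h, and 1774, 1693 and 1731 at 102 h. The low values of 651 and 810 were those of 8 h replicate 1 and 60 h replicate 1, the arrays of lowest 5′ signal. Apart from 60 h replicate 1, the arrays of 60 h and later were all above the 5 earlier ones. At 102 h PRB1 was 1.85-fold higher than at 8 h (0.89 ± 0.32, adjusted p = 0.0358), while its F-test missed the threshold (adjusted p = 0.0542).

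In the fit without the low 5′ arrays, PRB1 changed over time (adjusted p = 5.91e-06). With all arrays PRB1 at 60 h exceeded 30 h by 0.48 ± 0.36 (adjusted p = 0.332), and with 1 array left out by at most 0.98. Without the low 5′ arrays it was called higher at 60 h than at 30 h, 2.06-fold (1.05). The level at 60 h is then that of 1 array, replicate 3. The rise at 102 h over 8 h was then smaller, 1.54-fold (0.62, adjusted p = 7.04e-05). Leaving out only 8 h replicate 1, or any 1 of the 3 arrays of 102 h, ended the call of 102 h over 8 h, with changes of 0.62 to 0.90 and adjusted p between 0.0732 and 0.144, as did the authors' scale (0.80, adjusted p = 0.0734). With all arrays no neighbours in the order 8, 30, 60, 102 and 80 h passed. Without the low 5′ arrays the 1 array left at 60 h was the highest, and PRB1 was lower at 102 h than on that array (-0.45).

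Carboxypeptidase Y fell at the end. PRC1 signal was 5016, 6194 and 6128 at 8 h, 8274 and 7390 at 30 h, 5465, 7761 and 7512 at 60 h, 8180, 8904 and 8057 at 80 h, and 5945, 6008 and 6035 at 102 h. The 3 arrays of 102 h were below all of 80 h, and within the range of 8 h. PRC1 was 1.40-fold lower at 102 h than at 80 h (-0.48 ± 0.13, adjusted p = 0.0269), and it changed over time (F-test adjusted p = 0.0113). The direction held without any 1 array, but the call was lost without any 1 of the 6 arrays compared, with adjusted p between 0.0614 and 0.108. With arrays centred on the median of the S. cerevisiae probe sets in place of quantile normalisation the PRC1 change was -0.18 (adjusted p = 0.562). With the low 5′ arrays left out, the fall was as large and its adjusted p was 3.04e-04, and PRC1 was also higher at 30 h than at 8 h (0.34, adjusted p = 0.0363, against 0.44 ± 0.15 and adjusted p = 0.179 with all arrays). Levels ran 8, 102, 60, 30 and 80 h from low to high, and no neighbours in that order passed with all arrays. Without the low 5′ arrays PRC1 was lower at 102 h than at 60 h (-0.33, adjusted p = 0.0262).

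Its inhibitor TFS1, which is not one of the 8 genes, had a signal of 1731, 2419 and 2463 at 8 h, 3416 and 2843 at 30 h, 3550, 5180 and 4742 at 60 h, 3721, 3513 and 3662 at 80 h, and 3138, 3138 and 3324 at 102 h. All 11 arrays after 8 h exceeded the 3 of 8 h. TFS1 was 1.47-fold higher at 102 h than at 8 h (0.56 ± 0.16, adjusted p = 0.0107) and 1.42-fold higher at 60 h than at 30 h (0.51 ± 0.18, adjusted p = 0.0474). The second call was marginal and was lost when any 1 of 12 of the 14 arrays was left out, 8 h replicate 1 and 60 h replicate 1 being the exceptions. With all 3 low 5′ arrays left out it was 0.61 with adjusted p = 0.00217. In that fit TFS1 was also higher at 30 h than at 8 h (0.35, adjusted p = 0.0446) and lower at 80 h than at 60 h (-0.39, adjusted p = 0.0261), where with all arrays these were 0.52 ± 0.18 (adjusted p = 0.183) and -0.29 ± 0.16 (adjusted p = 0.213).

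Carboxypeptidase S did not pass any test. CPS1 signal was 484, 826 and 713 at 8 h, 674 and 764 at 30 h, 494, 666 and 644 at 60 h, 873, 744 and 651 at 80 h, and 720, 619 and 621 at 102 h. The ranges of 8, 80 and 102 h overlapped, and the difference of 102 h over 8 h was -0.01 ± 0.19. Its F-test gave adjusted p = 0.535, and 5.06% of tested probe sets had a smaller span between time means. CPS1 was the only one of the 8 whose F-test also missed the threshold without the 3 arrays low in 5′ signal (adjusted p = 0.314).

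For the aminopeptidases, APE3 signal was 7228, 6128 and 6225 at 8 h, 7712 and 6891 at 30 h, 7559, 7228 and 6371 at 60 h, 6112, 6128 and 6717 at 80 h, and 5903, 5730 and 5620 at 102 h. The 102 h arrays were below all 11 others, yet the difference from 8 h was -0.18 ± 0.10 and missed the threshold (adjusted p = 0.155), as did the F-test (adjusted p = 0.0683). The largest difference between APE3 time means, 30 h over 102 h, was 0.34 on the log2 scale, 1.27-fold. Without the 3 arrays low in 5′ signal the APE3 F-test passed (adjusted p = 0.0246) and none of its 5 comparisons did.

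LAP3 signal was 2534, 2884 and 2809 at 8 h, 3779 and 3173 at 30 h, 2534, 4604 and 3864 at 60 h, 2486, 2609 and 2625 at 80 h, and 1925, 1844 and 2028 at 102 h. The lowest 3 of the 14 arrays were those of 102 h. The largest difference between LAP3 time means, 60 h over 102 h, was 0.88 on the log2 scale, 1.84-fold. LAP3 was 1.42-fold lower at 102 h than at 8 h (-0.50 ± 0.17, adjusted p = 0.0270), a call lost without 8 h replicate 2 or 3 or 102 h replicate 1 or 2 (adjusted p between 0.0652 and 0.0790) or with centred arrays (-0.43, adjusted p = 0.0721). Without the low 5′ arrays LAP3 was also lower at 80 h than at 60 h (-0.59, adjusted p = 0.00309) and at 102 h than at 80 h (-0.41, adjusted p = 0.00150). With all arrays these steps were -0.47 ± 0.17 (adjusted p = 0.0703) and -0.41 ± 0.17 (adjusted p = 0.120). With all arrays no neighbours passed in the order of APE3 (102, 80, 8, 60 and 30 h) or of LAP3 (102, 80, 8, 30 and 60 h).

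**Figure D2:**
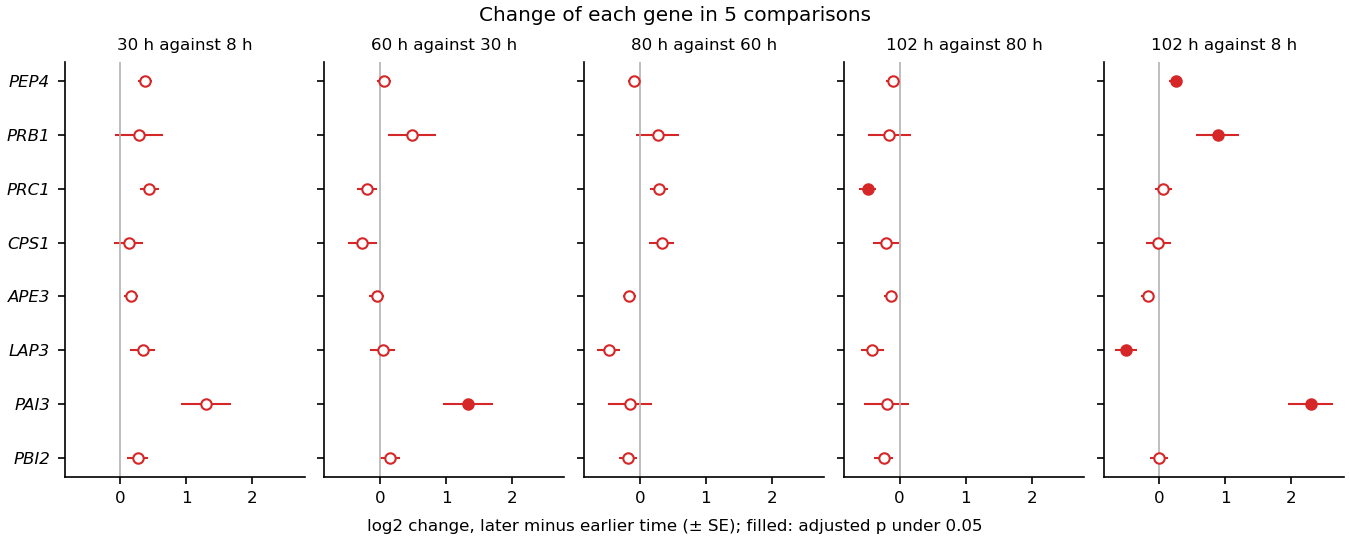
Log2 change of each of the 8 genes (later minus earlier time, with its SE) in the 5 comparisons, one panel each. Filled points have a limma adjusted p under 0.05. PAI3 lies farthest to the right in the panels of 60 h against 30 h and 102 h against 8 h, and the filled points below 0 are PRC1 in 102 h against 80 h and LAP3 in 102 h against 8 h.

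Over the whole group, 4 of the 8 genes changed over time by the F-test (PEP4, PRC1, LAP3 and PAI3), against 68.5% of all probe sets tested. The median span between time means was 0.49 for the 8 genes and 0.87 for all tested probe sets, on the log2 scale. Spans were not compared with those of probe sets of similar signal. With the low 5′ arrays left out, PRB1, APE3 and PBI2 joined and 7 of the 8 passed, against 81.8%. The same count was 7 without 60 h replicate 3 alone, against 74.4%, and 6 without 8 h replicate 1 alone, against 71%.

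Of the 8 genes, 3 were higher at 102 h than at 8 h (PAI3, PRB1 and PEP4), against 21.6% of all probe sets, and 1 (LAP3) was lower, against 28.6%. The median change of the 8 was 0.03, beside -0.09 over all tested probe sets. Signals of 102 h and 8 h did not overlap for 5 of the 8, against 65.6% of all. With the low 5′ arrays left out PEP4 dropped from the calls, so that 2 were higher and 1 lower, against 28.6% and 33.7%.

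Between successive times few members passed. PAI3 alone was higher at 60 h than at 30 h and none was lower, against 16.2% higher and 11.7% lower over all probe sets. At 102 h against 80 h PRC1 alone was lower and none was higher, against 8.36% lower and 7.59% higher. No member passed at 30 h against 8 h, where 0.112% of all were higher and 0.131% lower by limma, and where at an unadjusted p under 0.05, 3 of the 8 (PEP4, PRC1 and PAI3) were higher at 30 h and none lower, against 6.33% higher and 10.2% lower over all. None passed at 80 h against 60 h either, where 9.42% of all were higher and 10.9% lower, and where at an unadjusted p under 0.05 PRC1 was higher and LAP3 lower at 80 h, against 16.5% higher and 18.9% lower over all. The unadjusted threshold was used only in these comparisons, where no member passed. With 1 array left out, the change of 30 h over 8 h ran from 0.23 to 0.52 for PEP4, from 0.34 to 0.52 for PRC1 and from 0.43 to 2.17 for PAI3. The 8 genes had a median change of 0.31 at 30 h over 8 h, beside -0.04 over all tested probe sets, and of -0.20 at 102 h over 80 h, beside -0.04.

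Members whose arrays did not overlap numbered 4 at 30 h against 8 h (34.8% of all probe sets), 2 at 60 h against 30 h (47.8%), 1 at 80 h against 60 h (38.5%) and 7 at 102 h against 80 h (56.8%). All 7 of the last were lower at 102 h, and CPS1 was the one that overlapped. The shares of all probe sets count both directions, so they are no background for a fall alone. With arrays centred on the S. cerevisiae median, PEP4 (0.12) and APE3 (0.14) were higher at 102 h than at 80 h. The other members kept their sign. Comparisons of successive times share arrays, so they are not independent of each other.

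In the fit that left out the low 5′ arrays, PRC1, PAI3 and PBI2 were higher at 30 h than at 8 h and none was lower, against 4.03% higher and 4.1% lower over all. PRB1 was the member higher at 60 h than at 30 h and none was lower, against 17.8% and 15.6%. LAP3 was lower at 80 h than at 60 h and none was higher, against 11.3% lower and 11.4% higher. At 102 h against 80 h, PRC1, LAP3 and PBI2 were lower and none was higher, against 23.1% lower and 19.7% higher.

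**Figure D3:**
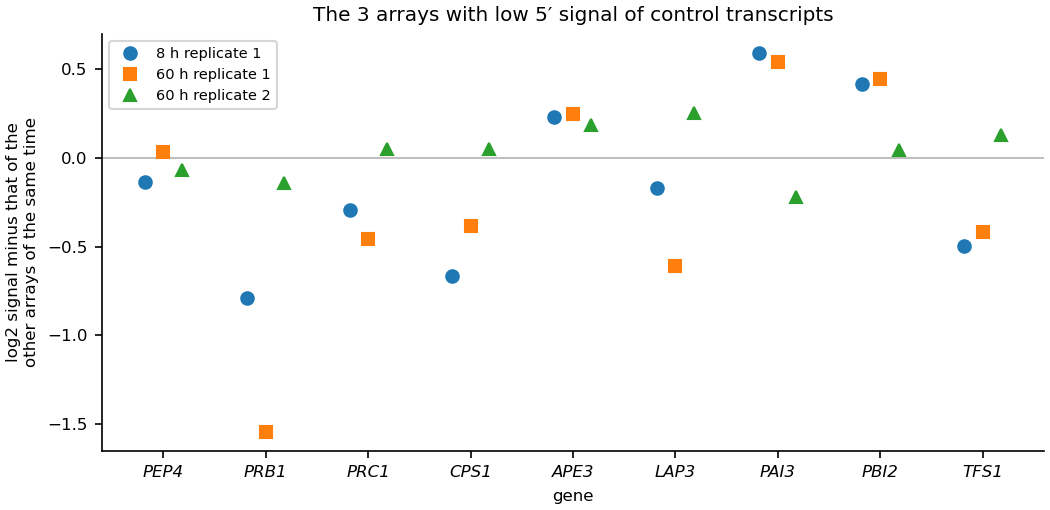
Log2 signal of each gene on the 3 arrays of low 5′ signal minus that on the arrays of the same time outside those 3 (8 h replicates 2 and 3, or 60 h replicate 3). PRB1 lies 1.54 below on 60 h replicate 1 and 0.79 below on 8 h replicate 1, while PAI3, PBI2 and APE3 lie above on both.

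The genes departed in different directions on the arrays of low 5′ signal. On 60 h replicate 1 and 8 h replicate 1, PRB1 deviated by -1.54 and -0.79 on the log2 scale, CPS1 by -0.38 and -0.66, and PRC1 by -0.46 and -0.30. PAI3 deviated by 0.54 and 0.59, PBI2 by 0.44 and 0.42, and APE3 by 0.25 and 0.23. PEP4 was within 0.14 of the other arrays on all 3. The part that RNA quality plays in the differences between times was not tested beyond the fits without these arrays.

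Since the inhibitors act on named enzymes, each enzyme was set against its own inhibitor on every array, as the log2 enzyme signal minus the log2 inhibitor signal, with 0 at the mean of the 8 h arrays. The 6 arrays of 80 h and 102 h were compared with the 5 of 8 h and 30 h by a two-sided exact permutation test over 462 regroupings, for which 0.00216 is the smallest p. The regroupings treat arrays of the same time as independent, although they share a time and all share the vessel. Too few times were sampled to regroup whole times, so these p-values describe arrays and not late against early times. The question was whether transcripts of a pair kept step. Different probe sets differ in brightness, so the value says nothing of how many copies of each transcript there were.

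For PEP4 minus PAI3 the late arrays lay between -2.24 and -1.97 and the early ones between -1.65 and 0.29, without overlap. The mean was lower by 1.72 on the log2 scale in the late arrays (-2.09 ± 0.11 late and -0.37 ± 0.78 early, SD, n = 6 and 5, exact permutation p = 0.00216, adjusted over the 3 pairs 0.00325). PAI3 alone already separated the late from the early arrays, and PEP4 was nearly level. The result therefore restates the PAI3 rise and is no separate support for it. The early arrays were themselves spread, at -1.65 and -0.19 for the 30 h arrays. At 60 h, which was not part of the test, the values were -2.59, -1.93 and -2.08, all below the early arrays.

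PRB1 minus PBI2 went the other way. Late arrays lay between 0.72 and 0.93 and early ones between -0.80 and 0.46, again without overlap. The late mean was higher by 0.84 (0.85 ± 0.08 late and 0.01 ± 0.49 early, SD, n = 6 and 5, exact permutation p = 0.00216, adjusted 0.00325). The lowest early value, and the lowest of 60 h at -0.91 beside 0.90 and 1.08 on the other arrays, came from 8 h replicate 1 and 60 h replicate 1. Without 8 h replicate 1 the difference was 0.64. PRB1 alone already separated the late from the early arrays, and PBI2 was close to level, so this result largely restates the PRB1 rise.

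PRC1 minus TFS1 differed less. Late arrays lay between -0.54 and -0.06 and early ones between -0.13 and 0.13, with overlap. The late times were themselves apart, at -0.27, -0.06 and -0.26 for 80 h and -0.48, -0.47 and -0.54 for 102 h. The difference was -0.32 (-0.35 ± 0.18 late and -0.03 ± 0.10 early, SD, n = 6 and 5, exact permutation p = 0.0130, adjusted 0.0130). On the authors' scale it was -0.22 and no longer passed (adjusted p = 0.115). The 60 h values, -0.78, -0.82 and -0.74, were lower than all 11 tested arrays.

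**Figure D4:**
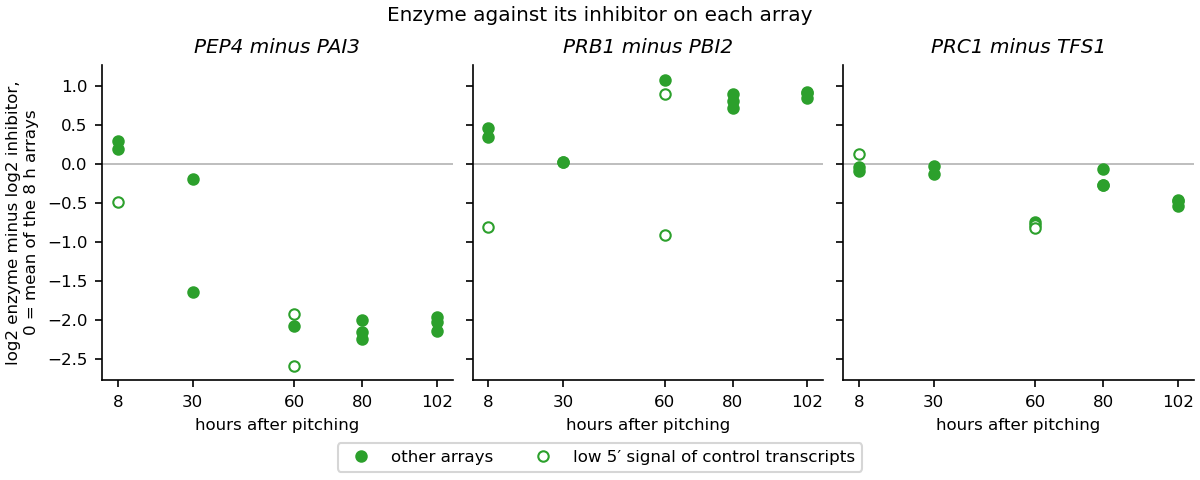
Log2 enzyme signal minus log2 inhibitor signal on each array against hours after pitching, for 3 pairs, with 0 at the mean of the 8 h arrays. Open circles are the 3 arrays of low 5′ signal. PEP4 minus PAI3 is between -2.59 and -1.93 from 60 h on, and PRB1 minus PBI2 is between 0.72 and 1.08 from 60 h on apart from -0.91 on 60 h replicate 1.

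Other genes of the vacuole and of proteolysis were taken from lists, to set the 8 beside their neighbours at 102 h against 8 h. Among other vacuolar hydrolases, 3 of 10 tested were higher and 2 lower (21.6% and 28.6% of all probe sets), with a median of 0.13. The lower count was 1 without 8 h replicate 2, 60 h replicate 2, 80 h replicate 2, a single 30 h array or a single 102 h array. ATG15, the lipase that opens autophagic bodies, was higher by 1.13 ± 0.37 on the log2 scale (adjusted p = 0.0235). PHO8, the vacuolar alkaline phosphatase, was higher by 0.87 ± 0.13 and YSP3, a subtilisin-like protease related to PRB1, by 0.83 ± 0.12. PPN1, an endopolyphosphatase, was lower, at -0.69 ± 0.16. ATG15 had a signal of 346, 310 and 317 at 102 h and 92, 190 and 187 at 8 h, with the low value on 8 h replicate 1, and without that array it no longer passed (0.78, adjusted p = 0.104). ATG15 was also lost without 102 h replicate 1 or 3 (adjusted p = 0.0651 and 0.0537).

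Peptidases of the cytosol gave 6 of 10 lower and none higher (28.6% and 21.6% of all), with a median of -0.54. DUG1, a dipeptidase of glutathione breakdown, had a signal of 1441, 1376 and 1294 at 102 h and 3024, 3396 and 3268 at 8 h. The change of DUG1 was -1.24 ± 0.11. AAP1 and LAP2, both aminopeptidases, changed by -1.25 ± 0.12 and -1.16 ± 0.13, and MAP2, a methionine aminopeptidase, by -0.90 ± 0.12.

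Of 9 proteases of the cell surface and Golgi, 1 was higher and 3 lower (21.6% and 28.6% of all), with a median of -0.26. The yapsins, aspartyl proteases like proteinase A but anchored at the cell surface, were split. YPS3 had a signal of 152, 190 and 171 at 102 h and 27, 41 and 41 at 8 h (2.26 ± 0.36, adjusted p = 2.05e-04). MKC7 went the opposite way, with 35, 58 and 40 at 102 h and 153, 177 and 153 at 8 h (-1.89 ± 0.27, adjusted p = 8.81e-05). The lower end of both changes lay near the background threshold of 22.1, so their size is uncertain. YPS7 (-0.46 ± 0.18) and the Golgi dipeptidyl aminopeptidase STE13 (-0.55 ± 0.18) were lower, and both calls were lost without 8 h replicate 1 or 102 h replicate 1 or 3 (adjusted p between 0.0559 and 0.174). YPS7 was also lost without 102 h replicate 2, 60 h replicate 2, a single 30 h array or a single 80 h array (adjusted p between 0.0504 and 0.0923). With the low 5′ arrays left out, the higher and the lower count of this list were both larger, as they were over all probe sets.

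Many newly made proteases reach the vacuole through sorting factors. Of 22 tested genes for sorting to the vacuole, with a median of -0.34, 9 were lower and 1 higher (28.6% and 21.6% of all). Examples were YPT7, the Rab GTPase of vacuole fusion (-1.38 ± 0.16), VPS17 and PEP8 of the retromer, which returns sorting receptors to the Golgi (-1.35 ± 0.15 and -1.28 ± 0.26), and PEP5 of the vesicle tethering complexes (-0.86 ± 0.14). With the low 5′ arrays left out both counts were larger, in this list as over all probe sets.

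Of 18 genes of the vacuolar ATPase, the proton pump that acidifies the vacuole, 12 were lower and none higher, with a median of -0.70. VMA13 and VMA5, subunits of its peripheral part, changed by -1.52 ± 0.15 and -1.15 ± 0.12. STV1, the Golgi form of a membrane subunit, changed by -1.38 ± 0.15 and VPH2, an assembly factor, by -1.15 ± 0.16. VMA13 had a signal of 645, 665 and 661 at 102 h and 1751, 1993 and 1907 at 8 h. Over all probe sets 28.6% were lower and 21.6% higher, and whether a list differed from the rest of the array was not tested.

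**Figure D5:**
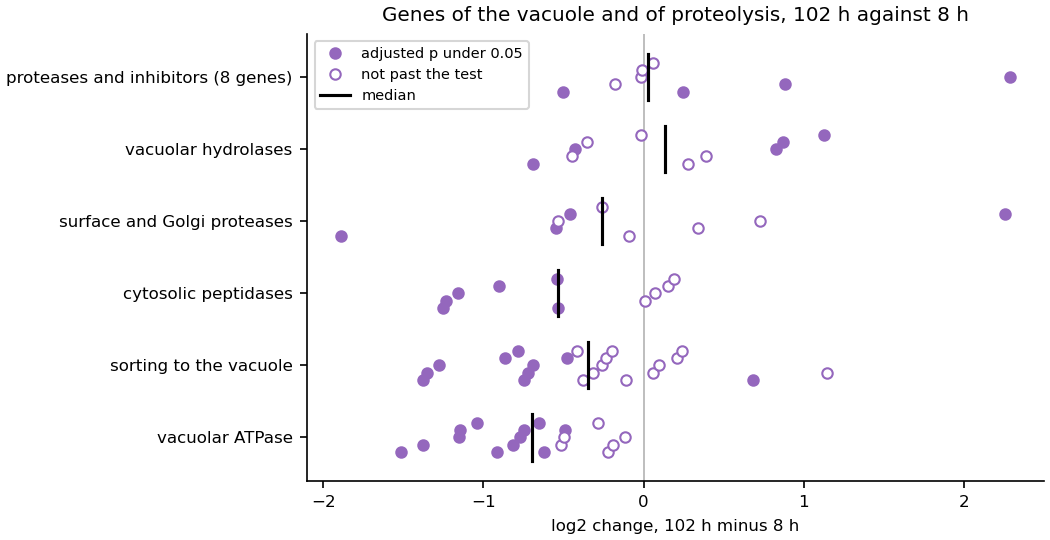
Log2 change at 102 h against 8 h of every tested gene of 6 lists, one row each, with the median as a black bar. Filled points have a limma adjusted p under 0.05 and open points do not. The 8 proteases and inhibitors have a median of 0.03, the cytosolic peptidases one of -0.54 and the vacuolar ATPase one of -0.70.

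Genes with the most similar pattern over the 14 arrays were found by Pearson correlation of log2 signal, as a description. The arrays of a time share their sample source, and all 14 share the vessel. For PEP4 the closest were ZRT2 (r = 0.919), a zinc transporter, CCC1 (r = 0.893), a vacuolar iron transporter, NQM1 (r = 0.873), YNL195C (r = 0.871) and HEF3 (r = 0.869). Without the 3 arrays low in 5′ signal these 5 had r between 0.836 and 0.911. The time means of ZRT2 were 245, 518, 643, 580 and 361 at 8, 30, 60, 80 and 102 h.

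For PRB1 the closest were ATO2 (r = 0.979), VHR2 (r = 0.978), MCH1 (r = 0.976), GUT1 (r = 0.969), the glycerol kinase, and ZWF1 (r = 0.967), glucose-6-phosphate dehydrogenase. These 5 had r between 0.953 and 0.981 without the 3 arrays. GUT1 had time means of 681, 1334, 2749, 3134 and 2089 at 8, 30, 60, 80 and 102 h. For PBI2 the closest were EPS1 (r = 0.937), MRX9 (r = 0.936), PPE1 (r = 0.935), IRC6 (r = 0.916) and DET1 (r = 0.912), with r between 0.863 and 0.904 without the 3 arrays.

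Within the group, PEP4 correlated with PAI3 at r = 0.815, with PBI2 at 0.625, with PRC1 at 0.591, with PRB1 at 0.483 and with CPS1 at -0.04. PRB1 and PBI2, enzyme and inhibitor, correlated at r = -0.18, and PBI2 and APE3 at 0.768. The value for PRB1 and PBI2 includes 60 h replicate 1 and 8 h replicate 1. On these arrays PRB1 deviated by -1.54 and -0.79 from the other arrays of the time and PBI2 by 0.44 and 0.42. The correlations within the group are over 14 arrays of 5 times and were not tested. They were not computed without the arrays low in 5′ signal.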

How the data were processed

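RNA of lager yeast strain CB11 was hybridised to single-colour Affymetrix Yeast Genome 2.0 arrays. The authors deposited linear signal intensity per probe set for all 14 arrays, made with GCOS 5.0 per the submitters' processing notes. No source used here states the scaling target. Array medians of that intensity ran from 22.6 to 38.7, so values were quantile normalised. A platform annotation named the probe sets, and symbols were updated with an R64 gene table, which gave names only. The median (5.58) and 95th percentile (22.1) of the dimmer part of the probe sets, split at the median, served as the floor for log2 values and the background threshold. A probe set was tested if at least 2 arrays of some time exceeded the threshold, which 5338 did. The number of arrays limits the precision.

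A linear model with 5 times was fitted with limma 3.58.1 in R 4.3.3, with an intensity trend, to all 14 arrays. Benjamini-Hochberg adjustment ran over all tested probe sets, with a threshold of 0.05, for the F-test and for 5 comparisons (30 h against 8 h, 60 h against 30 h, 80 h against 60 h, 102 h against 80 h and 102 h against 8 h). The fit was tested on simulated data with independent noise on every array. The simulation held no arrays of low 5′ signal, so it cannot say how the fit behaves with them. The 3 enzyme and inhibitor pairs were compared by exact permutation. The members and lists were chosen with earlier results of these data known. Named genes are the 8 members, TFS1, up to 4 genes of each list with the largest change past the test at 102 h against 8 h, and the 5 genes most correlated with PEP4, PRB1 and PBI2. VPS4 was below the filter, and no probe set was named for ATG42 and DPP3 here. Replicate numbers were not used to pair the samples in the main fit.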

Additional observations from a re-analysis of the deposited data

How the results depend on the processing

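The share of all tested probe sets called, given in brackets, moves with the setting too. Of the 8 genes, 4 changed over time by the limma F-test (68.5%), and this was 7 without the 3 arrays of low 5′ signal (81.8%), 7 with a covariate for 5′ over 3′ signal (82%), and 4 to 7 when 1 array was left out (60.9% to 74.4%). At 30 h against 8 h the count of higher genes was 3 without the 3 arrays (4.03%), 3 with the covariate (3.35%) and 0 to 2 without 1 array (0% to 2.36%). At 60 h against 30 h, higher genes numbered 2 with the covariate (20.5%), 0 in a fit of the arrays of the 2 times alone (2.12%) and 0 to 2 without 1 array (6.28% to 19.7%). At 80 h against 60 h, lower genes numbered 3 with arrays centred on the S. cerevisiae median (11.9%), 1 without the 3 arrays (11.3%), 1 with the covariate (14.7%) and 0 to 1 without 1 array (5.88% to 15.3%). At 102 h against 80 h, lower genes numbered 0 with centred arrays (5.37%), 5 in the fit of the 2 times alone (26%), 3 without the 3 arrays (23.1%), 2 with the covariate (19.3%) and 0 to 2 without 1 array (3.41% to 13.7%), beside 1 in the report (8.36%). At 102 h against 8 h, higher genes numbered 1 on the authors' scale (16.6%) and 1 to 3 without 1 array (17.6% to 25.6%), and lower genes 0 with centred arrays (26%) and 0 to 1 without 1 array (23.8% to 32.5%). Both the authors' scale and centring gave -0.22 for PRC1 minus TFS1 (exact permutation, adjusted p = 0.115). The authors' scale put the median change of all tested probe sets at -0.30 at 102 h against 80 h and 0.25 at 80 h against 60 h (-0.04 for both after quantile normalisation), where the share of calls that were higher became 7.9% and 86.5%, against 47.6% and 46.4%.

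Changes of sign numbered 45, of which 0 passed the threshold in either fit. On the authors' scale the values were 0.026 (PRC1), 0.15 (APE3) and -0.034 (LAP3) at 60 h against 30 h, -0.055 (CPS1) at 30 h against 8 h and 0.030 (PAI3) at 80 h against 60 h. With centred arrays they were -0.029 (PEP4), 0.023 (APE3) and -0.16 (LAP3) at 60 h against 30 h, -0.17 (PRC1) at 80 h against 60 h, 0.12 (PEP4), 0.14 (APE3) and 0.059 (TFS1) at 102 h against 80 h, and 0.050 (APE3) and 0.062 (PBI2) at 102 h against 8 h. Without the 3 arrays they were -0.29 (PRB1) at 80 h against 60 h, -0.039 (PRC1) and 0.13 (PBI2) at 102 h against 8 h, -0.10 (CPS1) at 30 h against 8 h and -0.010 (PBI2) at 60 h against 30 h. With the covariate they were -0.11 (PRB1) and -0.054 (CPS1) at 30 h against 8 h, 0.0029 (PRC1), 0.0061 (CPS1) and -0.066 (PBI2) at 60 h against 30 h, -0.32 (PRB1), 0.15 (PAI3) and 0.032 (PBI2) at 80 h against 60 h, and -0.11 (PRC1) and 0.18 (PBI2) at 102 h against 8 h. Without 1 array, ranges were -0.039 to 0.11 (PRC1), -0.24 to 0.15 (CPS1) and -0.11 to 0.13 (PBI2) at 102 h against 8 h, -0.10 to 0.29 (CPS1) at 30 h against 8 h, -0.13 to 0.030 (APE3), -0.082 to 0.20 (PEP4) and -0.15 to 0.28 (LAP3) at 60 h against 30 h, and -0.22 to 0.55 (PRB1) and -0.31 to 0.071 (PAI3) at 80 h against 60 h. The cause was not tested.

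With the replicate number as a block, 6 of the 8 genes changed over time, against 72.3% of all tested probe sets. PEP4 at 102 h against 8 h was then 0.25 with limma adjusted p = 0.0583. The other counts of the 8 genes stayed within 1.5 times. Sorting genes higher at 102 h against 8 h numbered 2 with the block and 1 without, and over all probe sets 1 was higher and 0 lower at 30 h against 8 h, beside 6 and 7 without the block. Deviations of samples with the same number correlated between -0.14 and 0.74 with a median of 0.01, and those with different numbers between -0.70 and 0.62. This gave no sign of pairing by number. It cannot exclude pairing, since the deviations are from means of few arrays. A block on chip lot or scan session was not run.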
